A study of Homo sapiens with 2 samples.

Results

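miR-7-5p is a single small RNA, 1 of 357 known miRNAs and of 407 miRNAs in all in the count table, where it stands as hsa-miR-7-5p. It was taken by that name, and its reads were compared with those of 20 known miRNAs of similar abundance, the 10 next above it and the 10 next below it in reads summed over both libraries. The cells were BT549, an established mesenchymal-like human breast cancer line, overexpressing SNHG15, a long non-coding RNA, with a tag of MS2 hairpins, which are RNA loops that the MS2 coat protein (MCP) binds. One library, called the pulldown here, came from lysate held on amylose resin coated with MCP fused to maltose binding protein (MBP-MCP), and the other, called the control, from lysate of the same kind of cells on bare amylose resin. Lysates stood on the resin for 5 h at 4 °C, were washed 3 times and were eluted with 20 mM maltose. The study set the resins side by side to find miRNAs that associate with SNHG15. Both libraries share the overexpressed, tagged RNA and differ in the protein on the resin, so binding to SNHG15 and binding to the MBP-MCP protein cannot be told apart.

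miRNAs are short RNAs that guide Argonaute proteins to messenger RNAs, mainly through their seed, bases 2 to 8 from the 5′ end. miR-7-5p is an old, conserved miRNA that is abundant in brain and endocrine cells, where the circular RNA CDR1-AS carries many sites for it. In breast and other tumours it is known as a suppressor that represses the receptor EGFR and other members of growth factor signalling. SNHG15, a host gene of a small nucleolar RNA, has been named elsewhere as a partner of it.

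The sequences below show miR-7-5p, the other arm of one of its hairpins, and the 4 comparison miRNAs with a lower ratio of pulldown to control than its own. miR-92a-3p is added as the comparison miRNA at the other end. Capitals mark the seed, and the sequences are RefSeq's on GRCh38.p14.
miR-7-5p: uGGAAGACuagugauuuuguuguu
miR-7-1-3p: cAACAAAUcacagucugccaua
miR-27a-3p: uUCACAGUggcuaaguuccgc
miR-27b-3p: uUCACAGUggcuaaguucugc
miR-9-5p: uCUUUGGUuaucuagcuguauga
miR-128-3p: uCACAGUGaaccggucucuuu
miR-92a-3p: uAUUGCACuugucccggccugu
Of 2370 mature miRNAs in the RefSeq table, 1 carries the seed of miR-7-5p, which is miR-7-5p itself, so it has no seed family in which to set it. miR-27a-3p and miR-27b-3p share their seed and differ at 1 of 21 bases. The longest run that miR-27b-3p shares with miR-128-3p is 8 bases long, and the longest that it shares with miR-7-5p is 4.

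miR-7-5p is made from 3 hairpins, and reads of the mature miRNA do not tell which. On GRCh38, MIR7-1 is at chr9:83969748-83969857 (minus strand), inside the protein-coding gene HNRNPK. It falls in an intron of 6 of the 7 HNRNPK transcripts that span it, and overlaps an exon annotated as UTR in 1. Within it, the mature miRNA covers 83969811 to 83969834. MIR7-2 is at chr15:88611825-88611934 (plus strand), and MIR3529 is annotated over it on the opposite strand. MIR7-3 is at chr19:4770670-4770779 (plus strand), in an intron of all 9 transcripts of the lincRNA gene MIR7-3HG that span it, with the mature miRNA at 4770700 to 4770723.

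In the pulldown 1139 reads were miR-7-5p, and in the control 859. The pulldown library was the larger, with 202560 miRNA reads against 111414, a ratio of 1.82, while its reads of miR-7-5p were 1.33 times those of the control. At an equal share, 1562 pulldown reads would have been counted. Scaled to 1000000 reads of the library (RPM), the level was 5623 RPM in the pulldown (exact Poisson 95% interval 5301 to 5959) and 7710 RPM in the control (7203 to 8243). The intervals do not overlap, and the control library is the higher. As a share of all reads, miR-7-5p made up 0.562% of the pulldown (Clopper-Pearson interval 0.530% to 0.596%) and 0.771% of the control (0.720% to 0.824%).

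The ratio of RPM, pulldown over control, was 0.729 (exact conditional binomial 95% interval 0.667 to 0.798), which is 1.37-fold lower in the pulldown, with a log2 ratio of −0.46. All intervals cover counting error only and take each read as independent. Whether duplicate reads were collapsed is not stated, and if they were not, the intervals are too narrow. With 1 library for each resin no replicate stands behind the difference, and none was tested. The values are shares of a library, and the amount of miR-7-5p on each resin was not measured here. In the authors' deposited table miR-7-5p has a log2 fold change of −0.46, p = 0.228 and an adjusted p of 0.843, and it is not among the 26 of 407 miRNAs that the table calls different.

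In the order of known miRNAs by RPM, miR-7-5p stood at place 23 of the 330 with reads in the pulldown and at place 19 of the 309 with reads in the control. In the pulldown its neighbours were miR-100-5p with 1202 reads and miR-27b-3p with 1085. Its Poisson interval there overlapped those of 5 miRNAs, which were miR-9-5p, miR-100-5p, miR-27b-3p, miR-23a-3p and miR-221-3p. In the control its neighbours were miR-99b-5p with 868 reads and miR-27b-3p with 821, and its interval overlapped those of let-7e-5p, miR-99b-5p and miR-27b-3p. miR-27b-3p, a regulator of lipid metabolism and angiogenesis, was thus its lower neighbour in both libraries. let-7e-5p, level with it in the control, stood above it in the pulldown, at 8225 RPM.

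**Figure D1:**
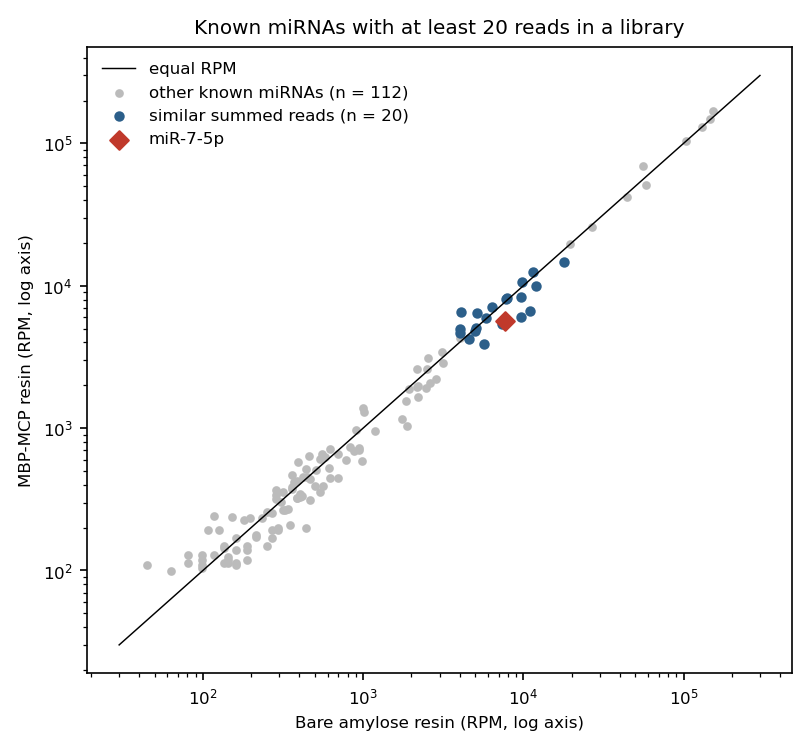
RPM of each known miRNA with 20 or more reads in either library, control library on the horizontal axis and pulldown library on the vertical axis, both logarithmic, with 1 library for each. miR-7-5p (red diamond, 7710 and 5623 RPM) lies below the line of equal RPM, among the 20 miRNAs of similar summed reads (blue).

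The lower ratio was compared with what other known miRNAs did. Among 133 known miRNAs with 20 or more reads in either library, called well-counted here, the interval of the ratio lay wholly below 1 for 26 (19.5%), miR-7-5p included, and wholly above 1 for 16 (12%). The split depends on scaling, becoming 11 (8.27%) and 33 (24.8%) under edgeR's TMM scaling. Under DESeq2's size factors it was 9 (6.77%) and 41 (30.8%). miR-7-5p was among those below 1 in each case. A ratio lower than that of miR-7-5p was found for 22 of the 133 (16.5%). Only 1 known miRNA was at least 2-fold lower (0.752%) and 2 at least 2-fold higher (1.5%), and miR-7-5p reached neither.

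The size of the ratio moved with the scaling and its side of 1 did not. It was 0.835 (0.763 to 0.913) with TMM factors, 0.884 (0.808 to 0.967) with DESeq2 size factors, 0.795 (0.727 to 0.869) with totals that leave out the 5 most abundant miRNAs and 0.727 (0.664 to 0.795) with totals of known miRNAs only. The median log2 ratio of the 133 known miRNAs moved from −0.06 with all reads to 0.14 with TMM factors, 0.22 with DESeq2 size factors and 0.07 without the 5 most abundant. Against that median, miR-7-5p stood at −0.40 on the log2 scale under each of these scalings. A scaling shifts every miRNA alike, so this gap could not change and is no sign of stability.

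**Figure D2:**
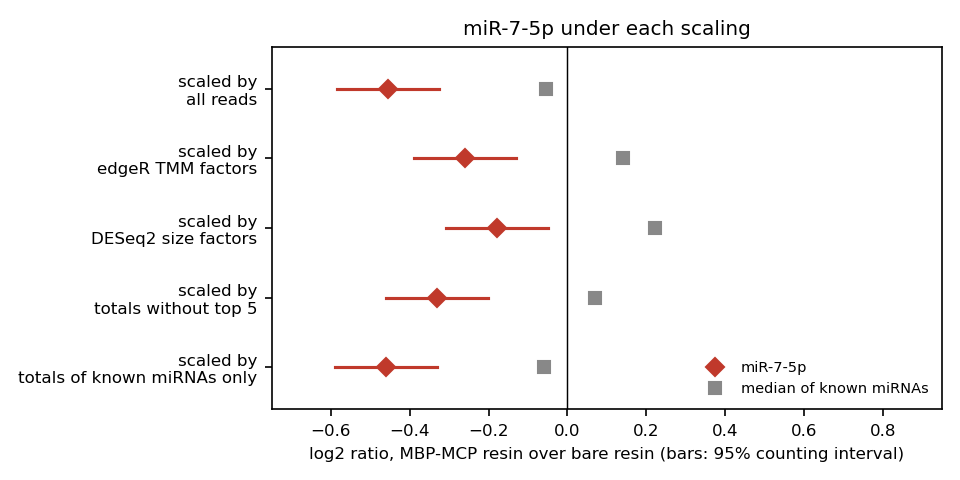
log2 ratio of miR-7-5p (red diamonds, bars for the 95% counting interval) under 5 scalings, beside the median of the 133 well-counted known miRNAs (grey squares). Both shift together by construction, since a scaling moves every miRNA alike. The interval of miR-7-5p lies below 0 under each of the 5 scalings, nearest to it with DESeq2 size factors.

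The 20 comparison miRNAs spanned 4980 to 1367 summed reads around the 1998 of miR-7-5p. Their median log2 ratio was 0.003, with 10 below 0 and 10 above, and their log2 ratios ran from −0.72 to 0.68. Intervals lay wholly below 1 for 7 of them and wholly above 1 for 7, where 19.5% and 12% of all well-counted known miRNAs did, most of them with fewer reads. The split became 5 and 11 under TMM scaling and 4 and 13 under DESeq2's size factors. miR-7-5p was 0.46 below their median on the log2 scale, and 4 of the 20 had a lower ratio than it, beside the 16.5% of well-counted known miRNAs.

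Dividing the ratio of miR-7-5p by that of another miRNA cancels the library totals, so the result does not change with scaling. This ratio of ratios put miR-7-5p lower, with its whole interval below 1, against 16 of the 20 comparison miRNAs. It put miR-7-5p higher against 2, and the interval included 1 for 2. All of these comparisons reuse the same reads of miR-7-5p, so they are not independent of one another. Among the other 132 well-counted known miRNAs, miR-7-5p was lower by this measure than 56 (42.4%) and higher than 4 (3.03%), and the interval included 1 for 72 (54.5%), many of them with few reads. Every such interval covers a single pair and was not adjusted for the number of comparisons, so some may leave out 1 through counting error alone. The comparison is between these libraries and not between conditions with replicates.

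Among the comparison miRNAs at or below miR-7-5p, miR-27b-3p had 1085 against 821 reads and a ratio of 0.727 (0.663 to 0.797). The ratio of miR-7-5p over it was 1.003 (0.882 to 1.14), which bounds their difference as far as counting error goes. miR-128-3p, a brain-enriched miRNA, had 791 against 632 reads and a ratio of 0.688 (0.619 to 0.766), with a ratio of ratios of 1.06 (0.921 to 1.22). Only miR-27a-3p and miR-9-5p lay below miR-7-5p by the whole interval, which was not adjusted for the number of comparisons. miR-27a-3p had 1345 against 1219 reads (ratio 0.607, 0.561 to 0.656), and miR-7-5p was 1.20 times as high relative to it (1.07 to 1.35). miR-9-5p, a neuronal miRNA that represses E-cadherin, had 1215 against 1081 reads (ratio 0.618, 0.569 to 0.672), and miR-7-5p was 1.18 times as high (1.04 to 1.33). How the authors assigned reads that match both miR-27a-3p and miR-27b-3p is not stated, so their separate values are uncertain.

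Among those that stood above miR-7-5p, the widest gap was to miR-92a-3p, an inhibitor of blood vessel growth from the miR-17-92 cluster, with 1319 against 452 reads. The ratio of miR-7-5p over it was 0.454 (0.394 to 0.523). miR-10a-5p, from a HOX gene cluster, had 1306 against 571 reads and a ratio of ratios of 0.580 (0.507 to 0.663). miR-221-3p, which represses the cell cycle inhibitor p27, had 1014 against 451 reads and a ratio of ratios of 0.590 (0.510 to 0.681). These 3 were below miR-7-5p in control reads, and miR-10a-5p and miR-92a-3p were above it in pulldown reads.

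The next comparisons were with miRNAs nearer to an equal share. miR-25-3p, a relative of miR-92a-3p with the same seed, had 1438 against 706 reads (0.651, 0.573 to 0.740 for miR-7-5p over it). let-7g-5p had 950 against 451 (0.630, 0.544 to 0.728), and let-7e-5p, of the same tumour suppressor family, had 1666 against 885 (0.704, 0.623 to 0.796). miR-125a-5p, which represses the receptor ERBB2, had 2550 against 1282 (0.667, 0.596 to 0.746). In each of these 4 the control reads per pulldown read were fewer than for miR-7-5p.

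miR-99b-5p had 1622 against 868 reads and miR-100-5p, which represses mTOR, 1202 against 652. miR-7-5p over these gave 0.710 (0.628 to 0.802) and 0.719 (0.630 to 0.821). For miR-103a-3p, a regulator of insulin sensitivity with 2150 against 1094 reads, the value was 0.675 (0.601 to 0.758). For miR-23a-3p (1017 against 565), miR-26b-5p (972 against 556) and miR-151a-3p (857 against 510) it was 0.737 (0.642 to 0.846), 0.759 (0.660 to 0.872) and 0.789 (0.684 to 0.911). The 3 that came closest while still above it were miR-24-3p (1692 against 1079, 0.846, 0.751 to 0.952), miR-31-5p (2030 against 1342, 0.877, 0.782 to 0.982) and miR-29a-3p (2977 against 2003, 0.892, 0.802 to 0.993). All 3 of these also had ratios under 1 with all reads, and those of miR-24-3p and miR-31-5p passed 1 with DESeq2 size factors.

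**Figure D3:**
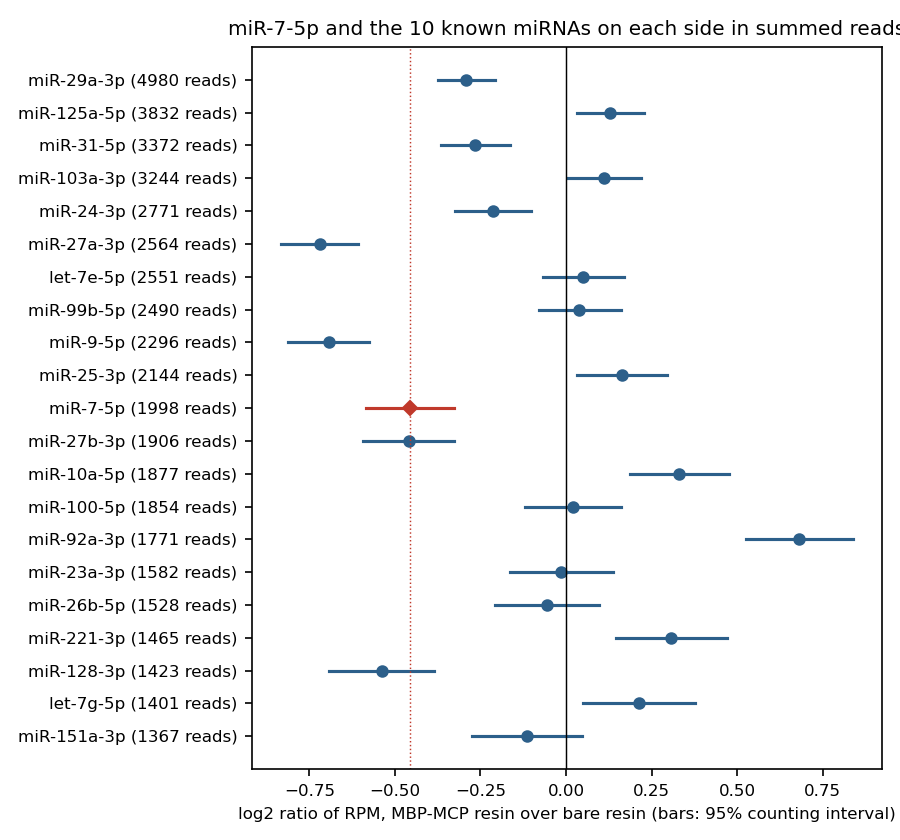
log2 ratio of RPM, pulldown over control, with its 95% counting interval, for miR-7-5p (red diamond and dotted line, −0.46) and the 20 comparison miRNAs (blue), in order of summed reads. 4 blue points lie left of the dotted line, those of miR-27a-3p, miR-9-5p, miR-128-3p and miR-27b-3p, and 16 lie right of it.

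Among 52 other known miRNAs with at least 100 reads in each library, the 6 nearest to miR-7-5p in log2 ratio were miR-27b-3p (a difference of 0.005), miR-30d-5p (0.04), miR-29b-3p (0.05), miR-126-3p (0.07), miR-15b-5p (0.08) and miR-128-3p (0.08). The likeness rests on 2 libraries. For each of the 6, the interval of the ratio of ratios included 1. It was widest for miR-30d-5p, with 143 against 105 reads (0.974, 0.738 to 1.28).

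In sequence, miR-7-5p is 24 bases long, 33.3% G or C and 45.8% U. Over the 50 known miRNAs with at least 100 reads in each library and a RefSeq sequence, the medians were 22 bases, 43.5% and 31.8%. Only 1 of the 50 had a lower GC content and 1 a higher U content. The log2 ratio had a Spearman coefficient of 0.11 with GC content and 0.12 with U content across these miRNAs, which share both libraries and are not independent. The other 3 miRNAs of 24 bases, miR-125a-5p, miR-182-5p and miR-155-5p, had log2 ratios of 0.13, 0.27 and 0.37. Those of 21 bases among the 50 had log2 ratios from −0.75 to −0.01. No coefficient was computed for length, and its relation to the ratio was not tested.

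The other arms of its hairpins were near the limit of the libraries. miR-7-1-3p had 1 read in the pulldown and 5 in the control, a ratio of 0.110 with an interval of 0.00233 to 0.983. Relative to it miR-7-5p had a ratio of ratios of 6.62 (0.739 to 314), which does not show a difference between the arms. miR-7-2-3p was not analysed here. miR-671-5p, which directs the cutting of CDR1-AS, had 19 reads in the pulldown and 14 in the control (ratio 0.746, 0.355 to 1.61), and miR-671-3p had 11 and 5 (ratio 1.21, 0.388 to 4.44). Of this circuit, then, miR-7-5p alone had reads enough to place its ratio. CDR1-AS itself was not analysed here.

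miR-7-5p was next set beside miRNAs enriched, like it, in neurons or endocrine cells. Of 14 listed, 11 were in the table and 6 were well counted. The median log2 ratio of the 6 was −0.60, against −0.04 for the 132 well-counted known miRNAs other than miR-7-5p. All 6 had a lower ratio than miR-7-5p, against 16.5% of all well-counted known miRNAs. Besides miR-9-5p and miR-128-3p these were miR-218-5p, a motor neuron miRNA, with 235 against 196 reads (ratio 0.659, 0.543 to 0.801), and miR-137, which acts in neuronal maturation, with 72 against 60 (0.660, 0.462 to 0.946). The others, named after their values were seen, were miR-138-5p with 40 against 33 reads (0.667, 0.410 to 1.09) and miR-9-3p with 40 against 49 (0.449, 0.288 to 0.696). By the ratio of ratios, miR-7-5p was higher than miR-9-5p and miR-9-3p, which come from the same hairpins, and the intervals for the other 4 included 1. Measured members under 20 reads, also named after their values were seen, went both ways. Ratios lower than that of miR-7-5p were found for miR-124-3p (8 against 7 reads) and miR-184 (1 against 2). Higher ones were found for miR-132-3p (9 against 6), miR-129-5p (2 against 1) and miR-153-3p (4 against 0). For each of these the interval of the ratio of ratios included 1. That members of this list stood low was known from earlier results on these reads, so the count is a description and not independent evidence.

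A list of other miRNAs known to restrain growth factor signalling was compared in the same way. Of 14 listed, 10 were in the table and 7 were well counted, with a median log2 ratio of 0.02. The interval of the ratio lay wholly below 1 for 2 of the 7 and wholly above 1 for 0. Over all well-counted known miRNAs these shares were 19.5% and 12%, and for so short a list the counts are near them. Of the 7, 1 had a lower ratio than miR-7-5p, miR-128-3p, a share near the 16.5% of all well-counted known miRNAs. let-7a-5p, which represses RAS genes, had 30194 against 16371 reads and a ratio of 1.01 (0.995 to 1.03), and miR-7-5p over it gave 0.719 (0.656 to 0.788). miR-126-3p, which represses a regulatory subunit of PI3 kinase, had 386 against 277 reads (ratio 0.766, 0.655 to 0.898), and miR-7-5p over it gave 0.952 (0.793 to 1.14). The remaining miR-146a-5p, miR-99a-5p and miR-34a-5p, named after their values were seen, had 92 against 50, 26 against 11 and 22 against 11 reads, and the ratio-of-ratios interval of miR-7-5p over each included 1.

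Of 11 other miRNAs named elsewhere as partners of SNHG15, 8 were in the table and 3 were well counted. Of those 3, 0 had a ratio under that of miR-7-5p, which with 16.5% as the share of all well-counted known miRNAs is near the background. Relative to miR-24-3p, miR-7-5p was lower (0.846, 0.751 to 0.952), as it was to miR-486-5p, with 133 against 62 reads (0.618, 0.444 to 0.854). Against miR-345-5p, with 35 against 24 reads, the value was 0.909 (0.513 to 1.59). The remaining 5 had at most 19 reads: miR-18a-5p 19 against 8, miR-338-3p 12 against 15, miR-153-3p 4 against 0, miR-200a-3p 1 against 1 and miR-627-5p 0 against 2. For each of these the interval against miR-7-5p included 1.

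**Figure D4:**
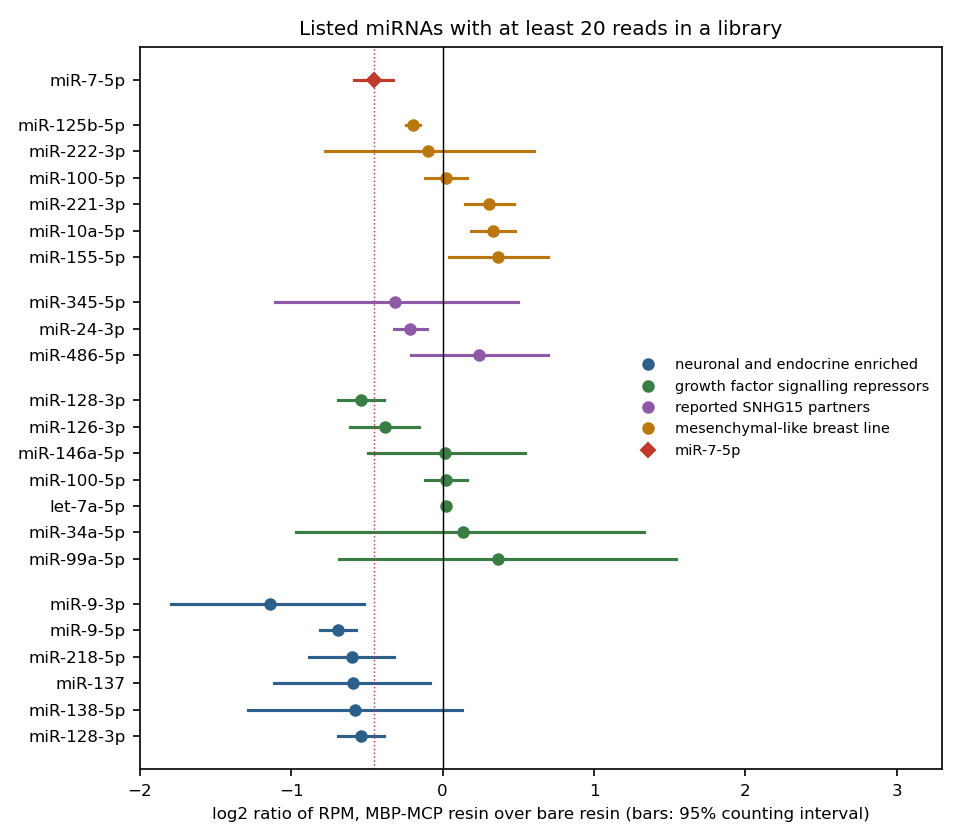
log2 ratio of RPM, pulldown over control, with its 95% counting interval, for miR-7-5p (red) and the well-counted members of 4 lists, in colour. All 6 neuronal and endocrine points lie left of the dotted line at miR-7-5p, as do 1 of 7 growth factor signalling repressors, 0 of 3 reported partners and 0 of 6 mesenchymal-like markers. Of all well-counted known miRNAs 16.5% do, and the last 3 counts are near that share.

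The labelled cell line was checked by marker miRNAs. Of 7 miRNAs typical of mesenchymal-like breast lines, 6 were in the table, summing to 70182 RPM in the pulldown and 75000 RPM in the control. Most of each sum was miR-125b-5p, with 51234 and 58691 RPM. By the ratio of ratios miR-7-5p was lower than 5 of the 6, beside 42.4% of the other well-counted known miRNAs. Many of those others had fewer reads. Of 7 luminal epithelial miRNAs 1 was in the table, miR-200a-3p, with 1 read in each library. Of 7 blood cell miRNAs 4 were in the table, summing to 726 and 682 RPM, nearly all of it miR-486-5p.

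SNHG15 was searched for letters that pair with the miR-7-5p seed. The gene is at chr7:44983023-44986961 (GRCh38, minus strand), with 10 annotated transcripts of 505 to 3116 bases in GENCODE 29. Which of them the construct holds is not stated. The transcript strand was searched for GTCTTCC (pairing with bases 2 to 8), TCTTCCA (bases 2 to 7, followed by A) and for its 6-base pieces. These are TCTTCC, for bases 2 to 7, and, for bases 3 to 8, GTCTTC. Both pieces lie within the first motif, and the former within the second. The first motif, GTCTTCC, was in 0 of the 10 transcripts. In the 982-base SNHG15-203 that compares with 8.24% of 1820 other long non-coding transcripts within 10% of its length, and in the longest, SNHG15-202, with 22.2% of 770.

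TCTTCCA was in 3 of the 10 transcripts, at 2 exonic places. The windows below are shown because they hold the longest seed matches found, in capitals, and the third is the 6-base match that most transcripts share.
chr7:44984266-44984272, minus strand, in SNHG15-202 and SNHG15-207: aggttagtacctTCTTCCAgagcagagggc
chr7:44985702-44985708, minus strand, in SNHG15-202 and SNHG15-206: aataaggttatcTCTTCCAagacaccttcc
chr7:44986588-44986593, minus strand, in 8 of 10 transcripts: cgcagcggcgcgGTCTTCggcagtctagtc
Coordinates are those of the capitals. TCTTCCA is held by 31.9% of other long non-coding transcripts of like length for SNHG15-202, 12.9% for SNHG15-206 and 13.1% for SNHG15-207. GTCTTC is held by 25.9% of those with the length of SNHG15-203 and by 55.2% with that of SNHG15-202. TCTTCC was in SNHG15-202, SNHG15-206 and SNHG15-207, and 74.9%, 39.5% and 39.5% of those of like length hold it. Such matches describe letters in annotated transcripts and say nothing of binding.

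Among the 19 comparison miRNAs with a RefSeq sequence, 4 had a match to bases 2 to 8 in at least 1 SNHG15 transcript. Of the 119 well-counted known miRNAs with a sequence, 15 (12.6%) had one. miR-24-3p, with CTGAGCC in all 10 transcripts, had a log2 ratio of −0.21. miR-29a-3p had its match in 2 transcripts, and miR-9-5p and miR-26b-5p in 1 each, with log2 ratios of −0.29, −0.69 and −0.06. The median log2 ratio of these 4 was −0.25. That of the comparison miRNAs without a match was 0.05, within a range of −0.72 to 0.68. The difference was not tested. miR-27a-3p and miR-27b-3p had no such match, as miR-7-5p had none.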

How the data were processed

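Small RNA from the 2 resins was sequenced; the labels' protocols name mirVana for extraction and QIAseq for the libraries. The authors deposited raw read counts of miRNAs. Per the file headers the same table holds "Tpm" values, which are RPM, since they equal reads per 1000000 reads to within 0.1%, with a log2 ratio of those values and the authors' p-values and q-values, whose dispersion is not stated. The build is GRCh38, per the submitters' processing notes. Neither aligner nor use of molecular identifiers is stated in the sources used here.

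RPM and ratios were computed from the counts with the totals of the table (Python 3.11.15, scipy 1.17.1), with a prior count of 0.5 on the log2 scale. Scaling factors came from edgeR 4.0.16 (TMM) and DESeq2 1.42.0, and neither was used for a test. Intervals are 95% and exact, for the ratio of ratios from the conditional odds ratio. Their computation was checked on simulated independent reads, which cannot show how they hold where reads are duplicated. Groups were taken from the resin treatment, with 1 library each. There were 0 columns of other samples, and the 3 deposited lists of called miRNAs were not used.

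miRNAs named in the text were the comparison set, the 6 nearest in ratio, up to 4 members of each list with 20 reads and the reported partners, with others marked where they stand; miR-29c-3p, miR-182-5p and miR-155-5p were also named after their values were seen. The members, lists and rules were chosen with earlier results of these data known.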

Additional observations from a re-analysis of the deposited data

How the results depend on the processing

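No paired analysis was possible because each resin has 1 library, and no library could be left out. The ratio of miR-7-5p stayed below 1 under each scaling tried and with a prior count of 5; it moved past its counting interval to 0.835 (TMM) and 0.884 (DESeq2 size factors), which rescale every miRNA alike. The median log2 ratio of the comparison miRNAs became 0.20 and 0.28 with the same factors. With 5 or 15 comparison miRNAs on each side, miR-7-5p was lower by the ratio of ratios than 7 of 10 and 26 of 30, and with those within 2-fold of its reads than 17 of 21. Known miRNAs with a ratio below that of miR-7-5p numbered 12 of 95 with at least 50 reads, 7 of 66 with at least 100 and 122 of 357 with no minimum. Intervals below and above 1 numbered 11 and 33 (TMM), 9 and 41 (DESeq2 size factors), and 16 and 26 without the 5 most abundant miRNAs. With DESeq2 size factors the ratios of miR-31-5p and miR-24-3p turned to 1.01 and 1.05. The neuronal and endocrine list's median was −0.40 with TMM and −0.32 with DESeq2 factors, the mesenchymal-like list's 0.44 with DESeq2 factors, and that of the blood cell list, resting on 1 miRNA at 0.24, was 0.43, 0.51 and, over all measured members, −0.59. Depth limits the rarer miRNAs, since for each listed miRNA under 20 reads the interval against miR-7-5p included 1.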

Other observations

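miR-29c-3p, a repressor of collagen genes, was with miR-27a-3p, miR-9-5p and miR-9-3p 1 of the 4 known miRNAs with at least 20 reads that lay below miR-7-5p by the whole interval of the ratio of ratios. It had 209 reads in each library, and miR-7-5p over it gave 1.33 (1.07 to 1.65). How the authors assigned reads that match both miR-29c-3p and its relative miR-29a-3p is not stated, so its separate value is uncertain.

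Over the 119 known miRNAs with at least 20 reads and a RefSeq sequence, 15 (12.6%) had a match to bases 2 to 8 in at least 1 annotated SNHG15 transcript. Their median log2 ratio was −0.21, and that of the 104 without a match was 0.01. These medians are a description of 2 libraries, with no test.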
